A study of Mus musculus with 6 samples.

Results

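The genes described here are 9 that macrophages are known for in their alternative, or M2, activation state: *Retnla*, *Chil3*, *Mgl2*, *Egr2*, *Il4ra*, *Tgm2*, *Il4i1*, *Myc* and *Il10*. They were chosen by name, from 36137 mouse genes with a measured transcript, and 8 of them were among the 18506 genes with at least 10 counts over all libraries, which is the condition for being tested. *Retnla* was below it. None of the 8 changed at the adjusted threshold when *Drp1* KO macrophages were compared with WT macrophages, where 3.36% of all genes tested did. When WT and *Drp1* KO libraries with the same number were paired, *Chil3* was higher and *Egr2* and *Mgl2* were lower in *Drp1* KO cells. In that fit 12% of all genes tested passed. No source states this pairing, which was inferred from the same data and is not clear for WT library 2. *Mgl2* rested on 39 counts in WT against 8 in *Drp1* KO cells.

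The cells were bone marrow-derived macrophages (BMDMs), grown for 7 days in medium conditioned by L929 cells, a fibroblast line that secretes the growth factor M-CSF. They were then kept for 8 h without serum at 2.1% oxygen, a treatment called hypoxia serum starvation (HSS), which the study used as a culture model of ischemia. Both groups carried 1 *LysM*-Cre allele, written *LysM*-Cre+/-, in which the lysozyme M promoter drives Cre recombinase in myeloid cells. WT cells were *LysM*-Cre+/- *Drp1*+/+ and *Drp1* KO cells were *LysM*-Cre+/- *Drp1* fl/fl, so that Cre could remove part of *Dnm1l*, the gene of the mitochondrial fission protein DRP1. The study used adult mice of both sexes for all its animal experiments and does not give the sex of the donors of each library. Neither the labels nor the methods name an addition of IL-4 or IL-13 to these cultures. Each group had 3 libraries, labelled as biological replicates. Marrow was pooled from a pair of mice per genotype, and it is not stated whether each library came from a pool of its own, so the p-values measure the spread between these libraries only.

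IL-4 and IL-13 are cytokines of T helper 2 cells, eosinophils and basophils. On macrophages they bind receptors that contain IL-4Rα, the product of *Il4ra*, and the kinases on these receptors phosphorylate STAT6, which enters the nucleus and turns on genes such as *Retnla*, *Chil3*, *Mgl2* and *Egr2*. The resulting state is associated with wound repair, defence against worms and restraint of inflammation. IL-10 acts through another receptor and STAT3, and its own production is also induced by inflammatory stimuli, so *Il10* is a looser member of this group than the others.

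The estimated counts of the libraries summed to between 23389488 and 32231206 reads, and a level of 3 counts, taken as the limit of what a count of 0 allows, was 0.0917 to 0.136 CPM (counts scaled to library size). These limits cover counting error only. Levels below are CPM after TMM normalization, given per library or as mean ± SD, and a positive log2 fold change means a higher level in *Drp1* KO cells. *Dnm1l* itself had 72.7, 69.9 and 75.1 CPM in the WT libraries and 58.7, 60.7 and 66.3 CPM in the *Drp1* KO libraries. Its groups did not overlap, but the difference did not pass (log2 fold change -0.23, standard error, SE, 0.0921, adjusted p = 0.248, edgeR; 0.0738 with libraries paired). Which exons of *Dnm1l* its reads covered is not recorded in the counts. The cells carried macrophage markers throughout, with all 8 listed above 3 counts in every library and a summed level of 13521 to 14919 CPM in WT and 12057 to 14465 CPM in *Drp1* KO. Of these 8, *Csf1r* and *Mertk* were lower and *Fcgr1* was higher in *Drp1* KO cells (adjusted p = 0.034, 0.0236 and 0.000322, edgeR). Libraries 1 of both groups stood apart from libraries 2 and 3 on the second principal component, which held 29.8% of the variance. All of these are bulk libraries, in which fewer cells of a type and less RNA per cell cannot be told apart.

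The 9 genes spanned a wide range of levels. TPM, the deposited measure that accounts for transcript length, allows levels to be compared between genes. In WT cells *Tgm2* (mean 43.1 TPM, 38.9 to 47.6) and *Il4ra* (40.0 TPM, 33.9 to 46.3) were the highest, and their ranges overlapped. *Egr2* (7.43 TPM) and *Myc* (7.10 TPM) followed, also overlapping each other, and neither reached the range of *Il4ra*. *Chil3* (3.93 TPM) and *Il4i1* (3.23 TPM) came next and overlapped each other. *Il10* (1.54 TPM, 1.28 to 1.74) and *Mgl2* (0.695 TPM, 0.386 to 1.03) had lower means and did not overlap each other. The range of *Il10* overlapped that of *Chil3* (1.6 to 5.61 TPM) but not that of *Il4i1* (2.07 to 4.68 TPM). *Retnla*, with 2 counts in all, was too low to be placed against *Mgl2*. *Chil3* and *Mgl2*, which are widely used to mark alternative activation in mouse, were thus both below the mean TPM of *Egr2* and *Myc* in WT cells. In *Drp1* KO cells *Tgm2* (42.4 TPM) and *Il4ra* (36.3 TPM) again led, *Chil3* came after them (6.42 TPM, 3.10 to 8.94), and its range overlapped that of *Myc* (5.13 TPM), which overlapped that of *Egr2* (3.72 TPM). *Il4i1* (2.95 TPM) and *Il10* (2.47 TPM) overlapped there, which they did not in WT cells.

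**Figure D1:**
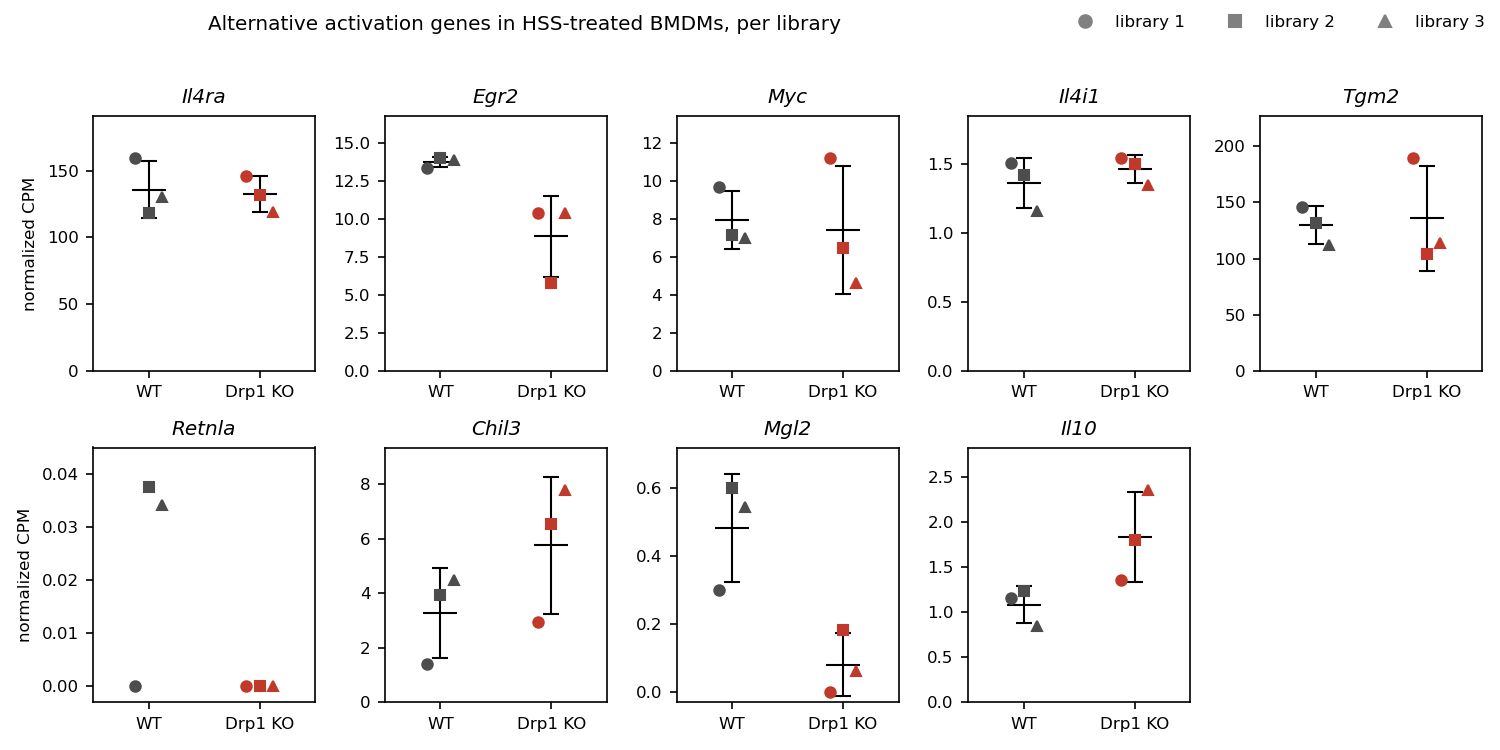
Level of each gene in normalized CPM (y axis, linear, a different scale for each gene) in 3 WT and 3 *Drp1* KO libraries, with the marker shape giving the library number; horizontal lines are means and bars are 1 SD, left out for *Retnla*, which had 2 counts in all. *Egr2* and *Mgl2* lie lower and *Il10* higher in all *Drp1* KO libraries than in any WT library, and the groups of the other genes overlap.

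Of the 8 genes tested, 0 passed an adjusted p of 0.05 with edgeR, and also 0 with DESeq2 and with limma-voom, where 3.36% of all genes passed with edgeR (2.29% higher and 1.06% lower in *Drp1* KO cells). The criteria of the study were an unadjusted p under 0.05 with a level over 25% above or 20% below that of WT. They are applied here to edgeR p-values unless stated. In this way 3 of the 8 met them, *Mgl2* and *Egr2* lower and *Il10* higher. Of all genes 12.7% met them (7.19% higher and 5.48% lower in *Drp1* KO cells). *Mgl2*, *Egr2* and *Il10* were also the 3 genes whose groups did not overlap, as was so for 21.9% of all genes tested (11.7% higher and 10.3% lower). The study itself used DESeq2. With DESeq2 4 of the 8 met the criteria, and 2173 genes did so in all, against 2345 with edgeR. The fit that pairs libraries by number called 3 of the 8, *Chil3* higher and *Egr2* and *Mgl2* lower, against 12% of all genes (6.73% higher and 5.22% lower). The median log2 fold change of the 8 was 0.01, with 4 above 0, beside a median of 0.00 over all genes tested.

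**Figure D2:**
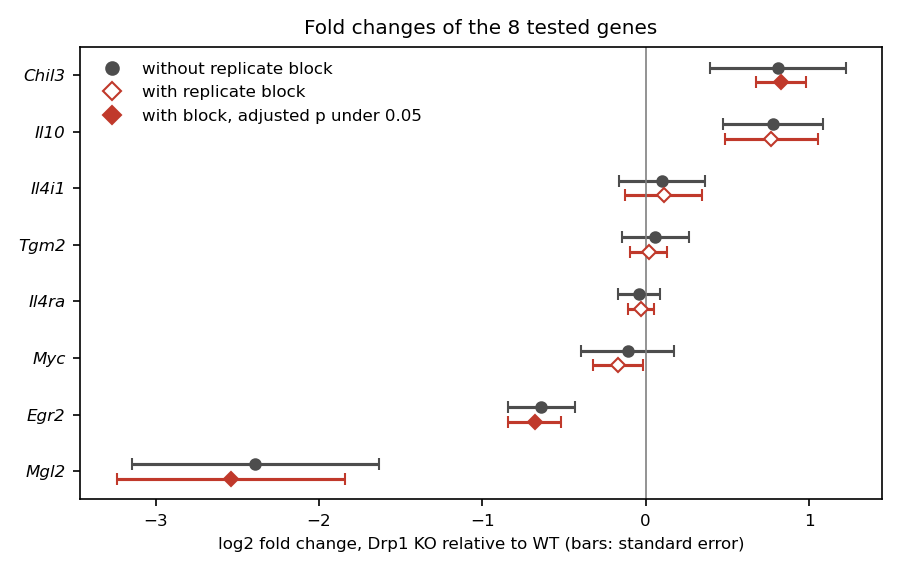
Log2 fold change of *Drp1* KO relative to WT (x axis) of the 8 tested genes, with bars for the standard error, from edgeR without (grey circles) and with (red diamonds) the libraries paired by number; filled diamonds have an adjusted p under 0.05. The estimates of the 2 fits lie close together for every gene, and the bars are narrower with pairing; 3 diamonds are filled, those of *Chil3*, *Egr2* and *Mgl2*.

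The receptor gene was expressed at a high level in both genotypes. *Il4ra* (ENSMUSG00000030748, GRCm39 chromosome 7, 125151079 to 125182844) encodes IL-4Rα, which is shared by the IL-4 and the IL-13 receptor. It had 159, 118 and 130 CPM in WT and 146, 132 and 119 CPM in *Drp1* KO libraries. The groups overlapped almost entirely, and library 1 was the highest in each. The log2 fold change was -0.04 (SE 0.127, adjusted p = 0.946, edgeR), and it ran from -0.15 to 0.09 as each library was left out in turn. None of the 31-base words of its transcripts occurs in a transcript of another gene, so its reads could be assigned to it alone.

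The reads of *Il4ra* were divided mainly between 2 transcripts. *Il4ra-201* is the protein-coding mRNA, with 11 exons and 5256 bases. *Il4ra-205*, with 12 exons and 3696 bases, holds an additional exon of 114 bases, its exon 8, at chr7:125171106-125171219 on the plus strand, and the annotation classes it as a target of nonsense-mediated decay. In mouse, an *Il4ra* mRNA with an exon inserted ahead of the membrane-spanning part is known to encode a secreted form of the receptor. The sequences across the junction, from GRCm39, show how the transcripts part: the lower-case letters are the last 40 bases of the exon that they share, which ends at position 125170762, and the capitals are the first 20 bases of the exon that follows. In *Il4ra-205* those capitals end in TGA, a stop codon in the reading frame at 125171123 to 125171125.
Il4ra-201: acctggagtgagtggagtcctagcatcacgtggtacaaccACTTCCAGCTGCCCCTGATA
Il4ra-205: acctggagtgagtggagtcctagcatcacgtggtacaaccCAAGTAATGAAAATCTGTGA

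*Il4ra-201* took 52.8%, 55.6% and 56.9% of the gene's estimated counts in the WT libraries and 46.1%, 61.2% and 58.3% in the *Drp1* KO libraries. The *Drp1* KO values lay on both sides of the WT values, with means of 55.2% ± 7.96 and 55.1% ± 2.09 (SD, n = 3 each; exact permutation test, two-sided p = 1, adjusted p = 1 over the 6 genes tested in this way). *Il4ra-205* took 44.8%, 41.6% and 41.1% in WT and 52.8%, 37.6% and 40.3% in *Drp1* KO libraries. Its share was highest in library 1 of each group, as was the level of the gene. The transcript with the stop codon thus held at least 37.6% of the counts in every library. It also ends 1548 bases before *Il4ra-201* at the 3′ side, so the division between the 2 estimates rests on reads from there as well as on the additional exon, and reads across the junctions were not analysed here.

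**Figure D3:**
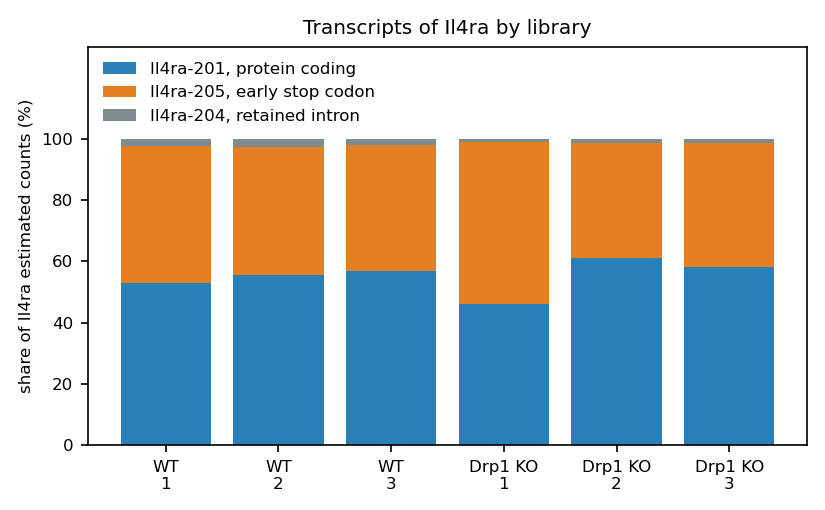
Share of the estimated counts of *Il4ra* (y axis, percent) on its 3 most abundant transcripts in each of the 6 libraries (x axis), as stacked bars. *Il4ra-201* and *Il4ra-205* make up nearly all counts in each library, and the *Drp1* KO libraries, at 46.1% to 61.2% for *Il4ra-201*, lie on both sides of the WT libraries, at 52.8% to 56.9%.

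The signalling partners of the receptor were measured as a list of 16 genes for ligands, receptor chains, kinases, STAT6, adaptors and inhibitors. Of the 14 tested, 0 passed an adjusted p of 0.05 with edgeR, beside 3.36% of all genes, and also 0 with DESeq2 and with limma-voom. The median log2 fold change was 0.16. *Stat6*, the transcription factor that the receptor activates, had 431 ± 49.1 CPM in WT against 428 ± 17.5 CPM in *Drp1* KO cells (SD, n = 3 each), with a log2 fold change of -0.01 with an SE of 0.105. The genes of both chains that pair with IL-4Rα were expressed: *Il2rg* had 93.3 ± 6.55 and 110 ± 11.8 CPM (log2 fold change 0.24, adjusted p = 0.301, edgeR), and *Il13ra1* had 78.1 ± 3.76 and 88.6 ± 9.55 CPM (0.18, adjusted p = 0.435, edgeR). *Socs1*, a feedback inhibitor of JAK kinases, was the single gene of the list that met the criteria of the study, which 12.7% of all genes met. Its counts were 15, 6 and 5 in WT and 15, 31 and 30 in *Drp1* KO libraries, a log2 fold change of 1.33 (SE 0.513, adjusted p = 0.225, edgeR; 0.0949 with pairing), and libraries 1 differed little. Its fold change ran from 0.97 to 2.10 as each library was left out, with the highest value without WT library 1. With libraries paired, where 12% of all genes passed, 1 gene of the list did, *Jak2*, a kinase that serves several cytokine receptors (log2 fold change 0.26, adjusted p = 0.046, edgeR); it was named after its values were seen.

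The ligands gave little signal. *Il13* had 1, 0 and 1 counts in WT and 0, 0 and 1 in *Drp1* KO libraries, which is below the limit that a count of 0 allows. *Il4* had 38, 45 and 66 counts in WT and 35, 78 and 64 in *Drp1* KO libraries (log2 fold change 0.09, SE 0.261). Nearly all of these counts lay on 1 transcript of 541 bases, *Il4-202*, for which the annotation defines no coding sequence. The 3 coding transcripts of *Il4* had at most 1.05 estimated counts each in any library. Of the cells known to make IL-4, the defining markers *Mcpt8* and *Prss34* of basophils and *Fcer1a* of mast cells and basophils were at 0 in all 6 libraries. Of the 10 markers of eosinophils, basophils and mast cells, 3 were above 3 counts in every library of each group: *Ccr3* with 107 to 280 counts, *Siglecf* with 12 to 21 and the mast cell protease *Cpa3* with 4 to 13. None of the 4 that were tested passed (edgeR), and the summed level of the 10 was 5.91 to 8.04 CPM in WT and 6.04 to 9.32 CPM in *Drp1* KO libraries. Of 8 lymphocyte markers, 2 were above 3 counts in every library of each group, *Cd3g* with 25 to 85 counts and *Ms4a1* with 4 to 12. *Cd3e* had 1 to 10 counts. The 8 summed to 2.03 to 4.09 CPM in WT and 1.59 to 3.19 CPM in *Drp1* KO libraries, and none of the 4 tested passed (edgeR).

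Of the transcription factors, *Egr2* was lower in *Drp1* KO cells and *Myc* showed no separation of the groups. *Egr2* (ENSMUSG00000037868, chromosome 10, 67371305 to 67378018) encodes a zinc-finger factor that IL-4 induces early and that sustains later parts of the response. It had 13.4, 14.0 and 13.9 CPM in WT and 10.4, 5.80 and 10.4 CPM in *Drp1* KO libraries. The WT libraries differed by an SD of 0.316 CPM, all *Drp1* KO libraries were below them, and library 2 was the lowest. The log2 fold change was -0.64 (SE 0.205, adjusted p = 0.137, edgeR). With libraries paired it was -0.68 and passed (SE 0.165, adjusted p = 0.0227, edgeR), with values of -0.37, -1.27 and -0.42 in pairs 1 to 3. Without *Drp1* KO library 2 the unpaired fold change was -0.40. *Egr3*, which shares 0.405% of the 31-base words of *Egr2*, stood at 0.720 ± 0.163 CPM in WT against 0.741 ± 0.271 CPM in *Drp1* KO cells.

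*Myc* (ENSMUSG00000022346, chromosome 15, 61857227 to 61862223) encodes a factor that promotes growth and that also takes part in IL-4 responses. It had 9.70, 7.16 and 7.02 CPM in WT and 11.2, 6.48 and 4.66 CPM in *Drp1* KO libraries. Library 1 was the highest of each group, and the *Drp1* KO libraries extended both above and below the WT libraries. The log2 fold change was -0.11 (SE 0.284, adjusted p = 0.920, edgeR), and it lay between -0.52 and 0.14 as each library was left out. In pairs 1 to 3 it was 0.20, -0.14 and -0.59, so the pairs did not share a direction.

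In a list of 15 partners and relatives of these factors, 12 were tested, and 0 passed an adjusted p of 0.05 with edgeR, beside 3.36% of all genes (0 with limma-voom and 1 with DESeq2). By the criteria of the study 1 was lower, *Mxd4*, which is 8.33% beside 12.7% of all genes. The median log2 fold change was 0.00. *Mxd4*, which competes with MYC for their shared partner MAX, had 58.9 ± 7.13 CPM in WT against 42.4 ± 4.73 CPM in *Drp1* KO cells (SD, n = 3 each), with a log2 fold change of -0.47 (SE 0.121, adjusted p = 0.0669, edgeR). With pairing, *Mxd4* passed as lower (adjusted p = 0.00269, edgeR), and so did *Nab2*, which represses EGR factors (log2 fold change -0.32, adjusted p = 0.022, edgeR). *Max* passed as higher with pairing (0.33, adjusted p = 0.0213, edgeR), at 41.9 ± 7.34 CPM in WT against 52.6 ± 8.68 CPM in *Drp1* KO cells. These were 3 of the 12 with pairing, where 12% of all genes passed. *Nab2* was named after its values were seen.

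The enzymes *Il4i1* and *Tgm2* did not pass in either fit. *Il4i1* (ENSMUSG00000074141, chromosome 7, 44465354 to 44490233) encodes a secreted oxidase of aromatic amino acids. It had 1.51, 1.42 and 1.16 CPM in WT and 1.54, 1.5 and 1.35 CPM in *Drp1* KO libraries, and the groups overlapped. The log2 fold change was 0.10 (SE 0.265, adjusted p = 0.920, edgeR). Its value is uncertain, because 82.4% of its 31-base words also occur in transcripts of 3 other genes, chiefly *Tbc1d17*, and because its annotated start, 44465354, is also that of *Nup62*, a gene of the nuclear pore with 121 ± 32.5 CPM in WT against 117 ± 23.4 CPM in *Drp1* KO cells. With counts scaled for transcript length the fold change was -0.053.

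*Tgm2* (ENSMUSG00000037820, chromosome 2, 157958322 to 157988359) encodes transglutaminase 2, which cross-links proteins and is a marker of alternative activation shared by mouse and human. It had 146, 132 and 112 CPM in WT and 189, 104 and 114 CPM in *Drp1* KO libraries. *Drp1* KO library 1 was the highest and library 2 the lowest of the 6, so the *Drp1* KO group enclosed the WT group. The log2 fold change was 0.06 (SE 0.204, adjusted p = 0.939, edgeR), and without *Drp1* KO library 1 it was -0.26. *Tgm1*, another transglutaminase, had a log2 fold change of -0.30 (adjusted p = 0.670, edgeR).

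A list of 17 genes of arginine transport, arginine use and polyamine synthesis was tested in full. With edgeR 0 passed an adjusted p of 0.05, beside 3.36% of all genes (1 with DESeq2, 0 with limma-voom). The criteria of the study were met by 4, which is 23.5% of the list beside 12.7% of all genes. *Slc7a2*, an arginine transporter that IL-4 induces, had 9.27, 5.81 and 6.41 CPM in WT and 4.09, 2.69 and 4.45 CPM in *Drp1* KO libraries. All *Drp1* KO libraries were below all WT libraries, with a log2 fold change of -0.94 (SE 0.243, adjusted p = 0.0707, edgeR). With pairing, where 12% of all genes passed, *Slc7a2* fell by 0.93 on the log2 scale and passed (adjusted p = 0.00500, edgeR), while *Azin1*, which protects ornithine decarboxylase from its antizyme, passed as higher (log2 fold change 0.43, adjusted p = 0.00903, edgeR), as did the arginine transporter *Slc7a1* (0.52, adjusted p = 0.00613, edgeR), which was named after its values were seen. *Azin1* had 365 ± 60.8 CPM in WT against 486 ± 11.9 CPM in *Drp1* KO cells. The antizyme gene *Oaz1* had 94.6 ± 12.4 and 75.3 ± 5.23 CPM (log2 fold change -0.33, adjusted p = 0.170, edgeR; 0.0628 with pairing), and *Odc1*, the ornithine decarboxylase itself, had 112 ± 11.3 and 122 ± 7.01 CPM (0.13, adjusted p = 0.600, edgeR).

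The secreted and lectin markers went in different directions. *Retnla* (ENSMUSG00000061100, chromosome 16, 48662895 to 48664824) encodes RELMα, or FIZZ1, one of the most strongly IL-4-induced proteins of mouse macrophages. It had 0, 1 and 1 counts in WT and 0, 0 and 0 in *Drp1* KO libraries. Both groups were at or under the limit that a count of 0 allows, so no level and no fold change could be given. Of its relatives, *Retnlb* was at 0 in all libraries and *Retnlg* had 3 counts in all, while *Retn* stood above the limit in every library, with 10, 10 and 12 counts in WT and 7, 12 and 9 in *Drp1* KO libraries (log2 fold change -0.33, adjusted p = 0.806, edgeR). The stretch of its promoter printed here is chr16:48842444-48842493 on the plus strand of GRCm38.p6, from RefSeq, and it is shown because the palindrome TTCNNNNGAA, a motif of the kind that STAT6 binds, stands in it at positions -145 to -136 from the gene's start (capitals).
Retnla: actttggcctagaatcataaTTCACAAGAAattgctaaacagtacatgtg
That motif, which reads the same on both strands, occurred in the 250 bases before the start in 1923 of 32851 mouse promoters, or 5.85%. Of the 9 genes, 6 had promoters in that table, 10 in all, and 1 of these 10 promoters held it. This describes letters only.

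*Chil3* (ENSMUSG00000040809, chromosome 3, 106054870 to 106074880) encodes Ym1, a chitinase-like protein that macrophages secrete after IL-4 and that neutrophil precursors also make. It had 33, 105 and 132 counts in WT and 65, 214 and 254 in *Drp1* KO libraries, which is 1.42, 3.94 and 4.50 CPM against 2.95, 6.54 and 7.79 CPM. Libraries 1 were far below libraries 2 and 3 in both groups, and the groups overlapped for that reason. Within each pair the *Drp1* KO library was higher, by 1.05, 0.73 and 0.79 on the log2 scale. Without pairing the log2 fold change was 0.81 and did not pass (SE 0.414, adjusted p = 0.377, edgeR). It ran from 0.46, without WT library 1, to 1.10 as each library was left out, and was 0.54 without *Drp1* KO library 3. With pairing *Chil3* rose by 0.83 (SE 0.153, adjusted p = 0.0059, edgeR). Without libraries 1 of both groups, an alternative added after the data were seen, the unpaired fold change was 0.76 (adjusted p = 0.0265, edgeR).

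The reads of *Chil3* are not all unique to it, since 41.5% of its 31-base words occur in 4 other genes, 28.9% in *Chil4*. *Chil4* had 0 counts in the WT libraries and 0, 1 and 3 in the *Drp1* KO libraries. The related *Chil1*, annotated as *Chi3l1*, had 3, 16 and 12 counts in WT and 6, 29 and 38 in *Drp1* KO libraries (log2 fold change 1.03, SE 0.606, adjusted p = 0.456, edgeR; 0.137 with pairing), again lowest in libraries 1.

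Of the 11 neutrophil markers 8 were tested, and all 8 had a log2 fold change above 0, from 0.21 (*Cxcr2*) to 2.02 (*Camp*). The 11 markers summed to 90.4 to 98.5 CPM in WT and 119 to 222 CPM in *Drp1* KO libraries, most of it from *Mmp8*, and 6 of the 11 were above 3 counts in every WT library and 7 in every *Drp1* KO library. *Ly6g*, which defines mature neutrophils, was at 0 in all 6 libraries, and none of the 8 markers tested passed without pairing (edgeR). *Mmp8*, a neutrophil collagenase, had a log2 fold change of 0.86 (adjusted p = 0.161, edgeR), but its order over the libraries was not that of *Chil3*. It had 89.0, 70.4 and 76.3 CPM in WT and 186, 69.3 and 174 CPM in *Drp1* KO libraries, highest in library 1 of each group and nearly equal in pair 2. *Camp*, an antimicrobial peptide of neutrophil granules, had 0, 1 and 5 counts in WT and 1, 21 and 7 in *Drp1* KO libraries (adjusted p = 0.386, edgeR). The adjusted p was 0.857 for *Cxcr2* and 0.690 for *Mpo*, and *Elane* had at most 4 counts in a library. *S100a9*, a subunit of the granulocyte protein calprotectin, had 3.45, 10.2 and 12.1 CPM in WT and 10.9, 26.2 and 26.4 CPM in *Drp1* KO libraries. *Ngp*, a neutrophil granule protein, had 0.862, 3.22 and 2.49 CPM in WT and 4.09, 7.39 and 5.03 CPM in *Drp1* KO libraries. Both, like *Chil3*, were lowest in library 1 of each group and higher in the *Drp1* KO library of every pair. With pairing, *S100a8* (log2 fold change 1.31, adjusted p = 0.00145), *S100a9* (1.35, adjusted p = 7.85e-05), *Ngp* (1.37, adjusted p = 0.00264) and *Ltf* (1.09, adjusted p = 0.0194) were higher in *Drp1* KO cells in edgeR's fit. These 4 were picked after their values were seen, and their part in the result for *Chil3* was not tested.

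**Figure D4:**
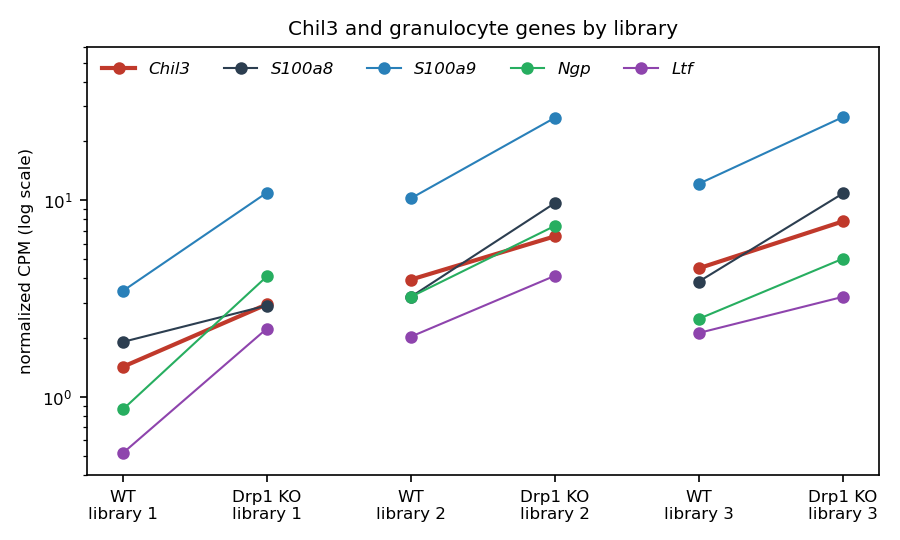
Normalized CPM (y axis, log scale) of *Chil3* (thick red line) and of 4 granulocyte genes in each library, with a line joining the WT and the *Drp1* KO library of the same number. All 5 genes are higher in the *Drp1* KO library of each of the 3 pairs, and all 5 are lower in the libraries numbered 1 than in the other libraries of their group.

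*Mgl2* (ENSMUSG00000040950, chromosome 11, 70020954 to 70028376) encodes CD301b, a galactose-binding lectin of alternatively activated macrophages and of some dendritic cells. It had 7, 16 and 16 counts in WT and 0, 6 and 2 in *Drp1* KO libraries, or 0.302, 0.600 and 0.545 CPM against 0, 0.183 and 0.0613 CPM. All *Drp1* KO libraries were below all WT libraries, and *Drp1* KO libraries 1 and 3 were at or under 3 counts. The log2 fold change was -2.39 (SE 0.755, adjusted p = 0.132, edgeR). With pairing *Mgl2* fell by 2.54 on the log2 scale and passed (SE 0.698, adjusted p = 0.0389, edgeR). These are 39 counts against 8 in all, so the size of the change is poorly known, and it ran from -3.60 to -1.96 as each library was left out. Summed levels of 7 dendritic cell markers were 3.75 to 5.86 CPM in WT and 2.45 to 4.49 CPM in *Drp1* KO libraries, 5 of the 7 were above 3 counts in every library of each group, and *Cd209a* was at 0; their part in the result was not tested.

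*Clec10a*, which encodes the related lectin CD301a and lies nearby on chromosome 11, holds 17.7% of the 31-base words of *Mgl2*. It had 12.9, 7.87 and 9.03 CPM in WT and 6.17, 6.39 and 5.89 CPM in *Drp1* KO libraries. All *Drp1* KO libraries were below all WT libraries here too (log2 fold change -0.69, SE 0.191, adjusted p = 0.0883, edgeR). With pairing *Clec10a* fell by 0.66 (adjusted p = 0.0180, edgeR). How reads were divided between the 2 genes cannot be read from the estimated counts.

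*Mrc1* encodes the mannose receptor CD206, the surface marker used most widely for alternative activation. It had 1564, 1439 and 1466 CPM in WT and 1147, 1120 and 1079 CPM in *Drp1* KO libraries. All *Drp1* KO libraries were lower, and *Mrc1* fell by 0.42 on the log2 scale (SE 0.0937, adjusted p = 0.0407, edgeR), with an adjusted p of up to 0.163 over the alternatives tried. *Pdcd1lg2*, which encodes the checkpoint ligand PD-L2 and is induced by IL-4, went the other way. It had 3, 15 and 12 counts in WT and 24, 51 and 98 in *Drp1* KO libraries, and every *Drp1* KO library was above every WT library. It rose by a log2 fold change of 2.34 (SE 0.521, adjusted p = 0.0395, edgeR), with an adjusted p of up to 0.147 over the alternatives.

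These genes belong to a list of 24 further IL-4-induced macrophage genes, of which 19 were tested. *Ccl17*, *Alox15*, *Cdh1*, *Chil4* and *Rnase2a* were too low to test. With edgeR 1 gene was higher (*Pdcd1lg2*) and 1 was lower (*Mrc1*) at an adjusted p under 0.05, which is 10.5% of those tested beside 3.36% of all genes. With pairing, 3 of the 19 were higher and 3 lower, where 12% of all genes passed. By the criteria of the study 3 were higher and 4 lower, where 12.7% of all genes met them. The median log2 fold change was 0.17 with 13 of 19 above 0. The list thus held genes that passed in each direction.

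**Figure D5:**
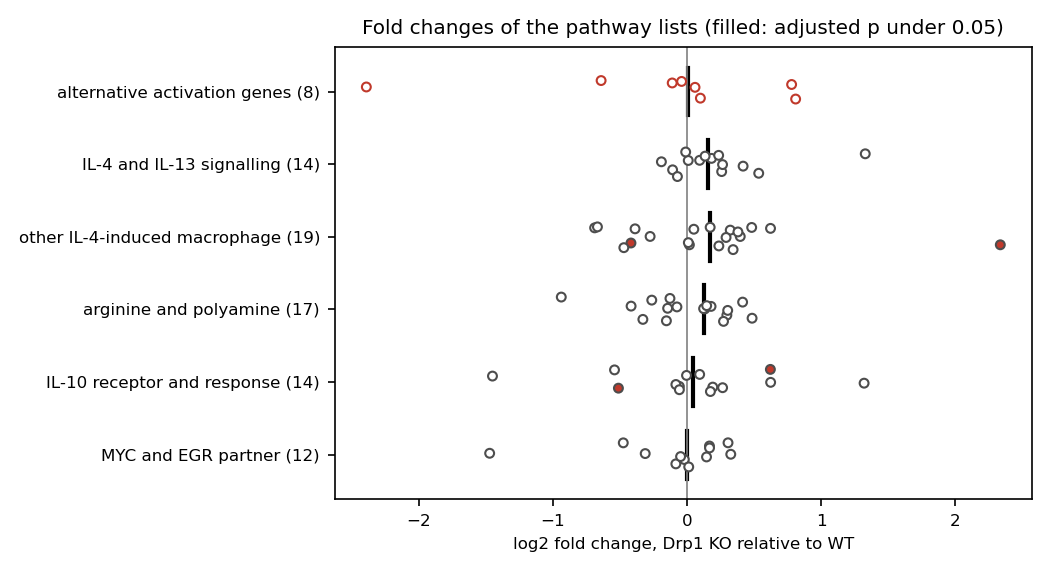
Log2 fold change of *Drp1* KO relative to WT (x axis) of each tested gene of 6 lists, with the number tested in brackets; filled points have an adjusted p under 0.05 (edgeR without pairing) and vertical bars are medians. The medians lie between 0.00 and 0.17, every list has genes on both sides of 0, and the filled points are *Pdcd1lg2* and *Mrc1* among IL-4-induced genes and *Dusp1* and *Maf* in the IL-10 list.

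The cytokine of the group was higher in *Drp1* KO cells without passing the adjusted threshold. *Il10* (ENSMUSG00000016529, chromosome 1, 130947581 to 130952711) encodes interleukin 10, which restrains inflammatory gene expression. It had 27, 33 and 25 counts in WT and 30, 59 and 77 in *Drp1* KO libraries, which is 1.16, 1.24 and 0.852 CPM against 1.36, 1.80 and 2.36 CPM. All *Drp1* KO libraries were above all WT libraries, but *Drp1* KO library 1 only narrowly so. In pairs 1 to 3 the log2 ratios were 0.23, 0.54 and 1.47. The fitted log2 fold change was 0.78 (SE 0.306, adjusted p = 0.236, edgeR), and with pairing 0.77 (SE 0.283, adjusted p = 0.113, edgeR). It stayed between 0.56 and 0.94 as each library was left out. *Il10* has 1 transcript in the files, and no 31-base word of it occurs in another gene.

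The receptor of IL-10 stood higher than the cytokine per length, with 114 TPM for *Il10ra* against 1.54 TPM for *Il10* in WT cells. *Il10ra* had 257 ± 35 CPM in WT against 247 ± 23.9 CPM in *Drp1* KO cells (log2 fold change -0.06, adjusted p = 0.894, edgeR), and *Il10rb* had 255 ± 13.8 and 272 ± 19.2 CPM (0.09, adjusted p = 0.712, edgeR). *Stat3*, which carries the signal of the receptor, had 181 ± 31.5 and 207 ± 28.2 CPM (0.19, adjusted p = 0.573, edgeR). Of the 14 genes of the receptor and its response, all tested, 1 rose and 1 fell at an adjusted p under 0.05, which is 14.3% beside 3.36% of all genes, and the median log2 fold change was 0.05. *Dusp1*, a phosphatase that switches off p38 and JNK kinases, had 22.8, 22.2 and 23.7 CPM in WT and 40.9, 29.3 and 35.8 CPM in *Drp1* KO libraries. It rose by a log2 fold change of 0.62 (SE 0.130, adjusted p = 0.0302, edgeR), and its adjusted p reached 0.172 over the alternatives. *Maf*, which encodes c-MAF, a transcription factor that activates *Il10* in macrophages, had 887, 720 and 822 CPM in WT and 528, 564 and 612 CPM in *Drp1* KO libraries. It fell by 0.51 on the log2 scale (SE 0.110, adjusted p = 0.0335, edgeR), with an adjusted p of up to 0.150 over the alternatives. With pairing, 3 of the 14 genes were higher and 3 were lower, where 12% of all genes passed (6.73% higher and 5.22% lower).

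For 6 of the 9 genes with at least 2 transcripts and enough counts, the share of the most abundant transcript was compared between the groups. None differed at an adjusted p under 0.05 in the exact permutation test, for which 3 libraries against 3 cannot give a p below 0.1. The difference in means was widest in *Il4i1*, where the leading transcript held 49.4% ± 9.34 in WT and 55.2% ± 4.40 in *Drp1* KO cells (SD, n = 3 each, difference 5.79 percentage points, exact permutation p = 0.4). In *Egr2* the leading transcript held 93.6% ± 5.61 in WT and 96.5% ± 3.61 in *Drp1* KO cells (SD, n = 3 each, exact permutation p = 0.6). In *Tgm2* 1 transcript held 99.8% ± 0.0838 of the counts in WT and 99.9% ± 0.097 in *Drp1* KO cells, and 1 held all counts of *Chil3*. In *Myc* the leading transcript, *Myc-204*, held 47.0% ± 6.43 in WT and 47.3% ± 3.53 in *Drp1* KO cells, with the rest spread over 6 other transcripts, 2 of which have the same length of 2338 bases and the same estimates in each library.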

How the data were processed

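Poly(A) RNA of 3 WT and 3 *Drp1* KO BMDM cultures was sequenced with paired-end reads. The authors quantified transcripts with kallisto 0.46.1 on the Ensembl cDNA of GRCm39 and deposited, per library, an estimated count, a TPM value, a length and an effective length for each of 116873 transcripts. The estimated counts are deposited unscaled, and TPM is relative to all transcripts of a library. By identifier, 116159 transcripts (99.39%) matched the GENCODE annotation of GRCm39. The counts of a gene's transcripts were summed and rounded to whole numbers, and 0.542% to 0.575% of a library's counts on unmatched transcripts were left out. Genes with at least 10 counts in total were tested with edgeR 4.0.16 (R 4.3.3): TMM normalization, quasi-likelihood test, no covariate, Benjamini-Hochberg adjustment over 18506 genes. The script was tested on simulated data. SEs are |log2 fold change|/√F.

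Samples were grouped by their labels, which number the libraries 1 to 3 in each group. Deviations from the group means correlated at 0.547, 0.223 and 0.374 between libraries of the same number (12248 genes, mean of at least 1 CPM), each over 0.1, and the libraries were therefore paired by number. No source states this pairing. Pairs of different numbers gave -0.496 to 0.344, and WT library 2 correlated better with *Drp1* KO library 3 (0.344) than with library 2, so the pairing rests on the data alone and is not clear for that library. No library was a copy of another. Ambiguity of reads was measured as the share of a gene's 31-base words, the default word length of kallisto, found in other genes.

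The alternatives were DESeq2 1.42.0, limma-voom (limma 3.58.1), median-of-ratios size factors, library size only, filterByExpr, no filter beyond 1 count, length-scaled counts, protein-coding transcripts only, the replicate block and each library left out. Leaving out libraries 1 of both groups was added after the data were seen. 1 further gene of the group is not reported here. The genes, the lists and the markers were chosen with earlier results of these data known. The share of a list beside that of all genes is therefore no independent test. From each list the text names genes with an adjusted p under 0.05, at most 4, or else at most 3 by fold and p, as well as receptor parts, signalling partners and close relatives of the 9 genes, and says where a gene was named otherwise.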

Additional observations from a re-analysis of the deposited data

How the results depend on the processing

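The number of all genes with an adjusted p under 0.05, 621, was 1032 with DESeq2, 1065 with no filter beyond 1 count, 2212 with the replicate block, 1880 without libraries 1 of both groups, and 181 to 904 as each library was left out. Of the 9 genes, 0 passed in the unpaired fit; the count was 1 with no filter beyond 1 count (*Egr2*, adjusted p = 0.0366, edgeR), 1 without libraries 1 of both groups (*Chil3*) and 3 with the block. By fold and p the count of the 9 genes was 3, and 2 to 5 with a library left out (5 without *Drp1* KO library 1). It was 4 with DESeq2, with no filter beyond 1 count, with the block and without libraries 1 of both groups, and 2 with filterByExpr. For the IL-4 and IL-13 signalling list the count of 0 was 1 with the block and 1 without libraries 1, and 0 to 1 with a library left out. For the other IL-4-induced genes the count of 2 was 1 with limma-voom, 4 with no filter beyond 1 count, 0 with length-scaled counts, 6 with the block and 0 to 2 with a library left out. For the arginine and polyamine list the count of 0 was 1 with DESeq2, 2 with no filter beyond 1 count, 3 with the block, 3 without libraries 1 and 0 to 2 with a library left out. For the IL-10 list the count of 2 was 5 with DESeq2, 6 with no filter beyond 1 count, 1 with length-scaled counts, 6 with the block, 4 without libraries 1 and 0 to 1 with a library left out. For the MYC and EGR list the count of 0 was 1 with DESeq2, with no filter beyond 1 count and with protein-coding transcripts only, and 3 with the block and without libraries 1. The causes were not tested.

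*Chil3*, *Mgl2*, *Egr2* and *Il10* kept their direction under every alternative that tested them, and *Mgl2* was not tested with filterByExpr. As each library was left out, the log2 fold change passed 0 for *Il4ra* (-0.15 to 0.093), *Tgm2* (-0.26 to 0.23), *Il4i1* (-0.018 to 0.18) and *Myc* (-0.52 to 0.14). It also turned for *Il4ra* (0.015) and *Tgm2* (-0.16) without libraries 1 of both groups and for *Il4i1* (-0.053) with length-scaled counts. Differences in transcript share with a library left out ran, in percentage points, from -2.89 to 4.62 for *Il4ra*, -0.00938 to 0.0855 for *Tgm2*, -1.8 to 4.01 for *Myc*, 0.971 to 6.17 for *Egr2* and 2.28 to 11.1 for *Il4i1* (11.1 without WT library 1). *Retnla* could be tested only with no filter beyond 1 count (adjusted p = 0.660, edgeR). The block changed no other call among the 9 genes. Depth limits *Mgl2*, *Il10* and *Il4i1*, with at most 77 counts in a library.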

Other observations

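*Il4ra-204*, a transcript of *Il4ra* with a retained intron, was picked after its values were seen and was not tested. It had 84.4, 87.1 and 73.9 estimated counts in WT and 31, 51 and 54.2 in *Drp1* KO libraries, which is 2.29%, 2.77% and 1.94% of the gene's counts against 0.962%, 1.18% and 1.40%. Every *Drp1* KO library was below every WT library in count and in share, while the level of the gene as a whole overlapped between the groups. Such a separation is frequent at gene level, where 21.9% of genes showed it in normalized CPM (10.3% with *Drp1* KO lower). The corresponding percentage for transcripts is not given here. Whether the lower values are particular to *Il4ra-204* was not tested.

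Of the 14 genes of the IL-10 receptor and response, 42.9% met the fold and p criteria, beside 12.7% of all genes, 3 higher and 3 lower in *Drp1* KO cells. The list was chosen with earlier results of these data known, so its share is no independent test. *Dusp1* and *Maf*, given above, were among the genes that met the criteria. *Socs3*, which restrains STAT3 signalling, stood at 3.38 ± 0.896 CPM in WT against 8.53 ± 4.85 CPM in *Drp1* KO cells (SD, n = 3 each; log2 fold change 1.32, adjusted p = 0.0863, edgeR; 0.0162 with pairing). *Cd163*, the scavenger receptor for haemoglobin bound to haptoglobin, stood at 1.87 ± 0.490 CPM and 0.667 ± 0.231 CPM (-1.45, adjusted p = 0.0572, edgeR; 0.0204 with pairing). *Hmox1*, the heme oxygenase, stood at 3760 ± 209 CPM and 2586 ± 674 CPM (-0.54, adjusted p = 0.123, edgeR; 0.00461 with pairing). *Ddit4*, an inhibitor of mTORC1 signalling, stood at 22.8 ± 5.67 CPM and 35.1 ± 8.58 CPM (0.62, adjusted p = 0.139, edgeR; 0.000906 with pairing). These 4 were named after their values were seen.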
